A study of Mus musculus with 12 samples.

Results

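Nuclear genes of oxidative phosphorylation were followed across cells sorted from mouse kidney cortex. The 95 genes were chosen by symbol alone, as protein-coding genes whose names carry the prefixes of the respiratory complexes and ATP synthase, out of 23378 genes in the deposited table. They comprised 36 subunits of complex I, 4 of complex II, 9 of complex III, cytochrome c, 17 genes assigned to complex IV (the related Ndufa4, Ndufa4l2 and Cox7a2l included), 17 of ATP synthase and 11 assembly factors. All mice were C57BL/6 and carried the nNosCreERT2-mTmG alleles, in which an inducible Cre recombinase driven by the neuronal nitric oxide synthase gene switches a reporter from red tdTomato to green GFP. Green cells were collected as macula densa cells. The most intensely red cells served as control cells, which the submitters took to represent distal tubule and collecting duct epithelium. Mice were kept for 14 days on control diet or on low salt diet with enalapril, an inhibitor of angiotensin-converting enzyme, at 150 mg/L in the drinking water. Each diet had 2 macula densa and 4 control-cell libraries. Age and sex were not given in the sources used here, nor was whether libraries came from separate animals, so that p-values measure only the spread between these libraries. The comparisons asked how the 2 cell populations differed, and how the diet with enalapril moved each of them.

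Oxidative phosphorylation takes place in the inner mitochondrial membrane. Complex I (NADH dehydrogenase) and complex II (succinate dehydrogenase) feed electrons into ubiquinone, complex III passes them to cytochrome c, and complex IV (cytochrome c oxidase) hands them to oxygen, and the resulting proton gradient drives ATP synthase. Most subunits are encoded in the nucleus and a small set, including catalytic subunits of complexes I, III and IV, is encoded in mitochondrial DNA. The macula densa is a plaque of cells that senses luminal salt where the thick ascending limb ends, a segment known for dense mitochondria and strong active salt transport.

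Promoters of the members were compared for motifs of factors known to act on nuclear respiratory genes. RefSeq promoters of GRCm38.p6, each reaching from 250 bases before to 50 bases after the gene start, were matched for 77 of the 95 genes by symbol. That start can differ from the one in the gene annotation used here, by 3643 bases for Atp5d, 2997 for Cox7a2l and 1305 for Atp5g2. Both strands were searched for GCGCANGCGC (NRF1), CCGGAAG (ETS factors such as GABP), AAGATGG (YY1), AAGGTCA (estrogen-related receptors, ERR) and GGGCGG (SP1). The NRF1 motif lay in 19 of the 77 promoters, or 24.7%, against 10.2% of 9650 promoters of other tested coding genes and 4.67% of all 27025 promoters of the same length. The ERR motif lay in 9 promoters, or 11.7%, against 3.08% of the other tested coding genes and 4.66% of all promoters. YY1 letters were found in 14.3% of member promoters, against 7.07% and 6.46%. The ETS motif was at 22.1%, against 17.9% and 9.08%. SP1 letters were the exception, in 48.1% of member promoters against 64.3% of the other tested coding genes and 35.6% of all promoters. These shares describe letters in a window and are not evidence of binding.

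The promoters below belong to 4 members on which the results turn (Sdha, Ndufs6, Ndufa9 and Ndufaf8), to Sdhd, shown because it holds 4 of the 5 motifs, and to Cox7a1. They are printed 5′ to 3′ on the strand of the gene, with NRF1, ETS, YY1 and ERR matches in capitals and SP1 matches not marked. Sdha (chr13:74350191-74350490, minus strand) held 3 NRF1 matches. Sdhd (chr9:50603800-50604099, minus strand) held 1 NRF1, 1 ETS, 1 ERR and 1 SP1 match, the ETS and ERR letters being on the opposite strand. Ndufs6 (chr13:73328433-73328732, minus strand) held 1 NRF1 and 1 YY1 match. Ndufa9 (chr6:126849095-126849394, minus strand) held 1 YY1 match. Ndufaf8 (chr11:120098684-120098983, plus strand) held 1 ETS, 1 YY1 and 1 SP1 match. Cox7a1 (chr7:30183921-30184220, plus strand) had none of the 5 motifs and is shown for contrast, as a member near the limit of detection.
Sdha: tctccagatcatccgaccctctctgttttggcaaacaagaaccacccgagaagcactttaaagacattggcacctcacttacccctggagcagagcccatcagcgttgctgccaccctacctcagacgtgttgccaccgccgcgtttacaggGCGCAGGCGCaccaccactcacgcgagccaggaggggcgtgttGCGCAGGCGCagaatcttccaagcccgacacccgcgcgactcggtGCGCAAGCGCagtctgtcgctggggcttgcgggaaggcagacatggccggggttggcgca
Sdhd: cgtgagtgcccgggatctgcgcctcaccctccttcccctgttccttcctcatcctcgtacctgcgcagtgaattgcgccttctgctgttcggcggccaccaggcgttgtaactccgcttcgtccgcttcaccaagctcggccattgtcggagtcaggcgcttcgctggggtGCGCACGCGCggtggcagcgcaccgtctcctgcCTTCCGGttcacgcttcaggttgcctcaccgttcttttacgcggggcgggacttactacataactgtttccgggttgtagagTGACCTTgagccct
Ndufs6: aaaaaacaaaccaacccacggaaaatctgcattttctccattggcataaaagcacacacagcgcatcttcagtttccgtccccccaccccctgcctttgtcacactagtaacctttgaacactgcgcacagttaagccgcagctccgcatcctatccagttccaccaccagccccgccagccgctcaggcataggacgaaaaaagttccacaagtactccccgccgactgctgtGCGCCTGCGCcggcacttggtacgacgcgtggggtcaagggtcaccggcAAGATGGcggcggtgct
Ndufa9: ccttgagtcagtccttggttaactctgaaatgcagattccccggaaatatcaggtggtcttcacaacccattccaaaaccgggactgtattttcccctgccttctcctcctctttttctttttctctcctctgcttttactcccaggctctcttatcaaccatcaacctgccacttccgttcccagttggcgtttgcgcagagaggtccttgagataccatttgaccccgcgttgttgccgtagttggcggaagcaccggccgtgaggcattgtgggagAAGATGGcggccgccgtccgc
Ndufaf8: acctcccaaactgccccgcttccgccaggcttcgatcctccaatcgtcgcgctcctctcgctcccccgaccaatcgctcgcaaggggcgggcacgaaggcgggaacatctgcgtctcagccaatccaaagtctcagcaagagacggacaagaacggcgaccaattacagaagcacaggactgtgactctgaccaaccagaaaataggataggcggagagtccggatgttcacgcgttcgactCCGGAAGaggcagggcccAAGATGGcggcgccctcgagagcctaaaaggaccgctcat
Cox7a1: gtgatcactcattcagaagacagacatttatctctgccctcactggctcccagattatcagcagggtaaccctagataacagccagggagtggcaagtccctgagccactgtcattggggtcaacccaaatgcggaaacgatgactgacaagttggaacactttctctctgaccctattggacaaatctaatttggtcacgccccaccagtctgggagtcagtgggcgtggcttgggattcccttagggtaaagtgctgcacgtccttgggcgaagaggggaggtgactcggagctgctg

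The sorted cells were checked by marker genes before the members were compared. Summed levels of 6 macula densa markers lay between 2151 and 3087 CPM (counts scaled to a common library total by trimmed means of M values, TMM) in the 4 macula densa libraries and between 44.6 and 434 CPM in the 8 control-cell libraries. The control cells also held markers of other cell types. Podocyte markers (5 genes) summed to 1252, 987, 638 and 38.6 CPM in control-cell replicates 1 to 4 on control diet and to 124, 994, 202 and 834 CPM on low salt with enalapril, and endothelial markers (7 genes) followed the same order on control diet at 1461, 1190, 798 and 42.5 CPM. In macula densa cells they were 138 and 14.9 CPM (podocyte) and 164 and 23.8 CPM (endothelium) on control diet, and 4.43 to 16.3 CPM on low salt with enalapril. Principal cell markers (7 genes) summed to 117, 278, 420 and 808 CPM in the control cells on control diet, and thick ascending limb markers (9 genes) to 219, 308, 1051 and 1648 CPM. In macula densa cells the thick ascending limb markers were higher, at 3447 and 4369 CPM on control diet and 2494 and 2649 CPM on low salt with enalapril. Slc12a1 is on both this list and the macula densa list. The part of thick ascending limb cells in the cell comparisons was not tested. Distal convoluted and connecting tubule markers (6 genes) summed to 102, 135, 239 and 809 CPM in control-cell replicates 1 to 4 on control diet. Intercalated cell markers (5 genes) summed to 18.7, 75.7, 95.4 and 313 CPM. Control-cell replicate 4 on control diet therefore stood apart, with the most distal and collecting duct markers and the fewest podocyte and endothelial markers of its group. Leaving it out keeps the 3 control-cell libraries on that diet with more podocyte and endothelial markers. The Pearson correlation of replicate 4 with its 3 replicates was 0.788 to 0.879 across genes (log2 CPM, genes are not independent), while those 3 correlated at 0.933 to 0.948 with each other. Counts of members called between the cell populations are given with and without this library, as are some medians and single-gene values. Medians of the other gene lists include it. Total counts ranged from 4259034 to 14856540 per library, of which 781241 to 2331458 belonged to nuclear protein-coding genes and 3751 to 23424 to the members.

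Members passed the filter on low counts in 90 of 95 cases. The other 5, Atp5s, Cox4i2, Cox6b2, Cox7b2 and Ndufa4l2, were not tested and are described by their counts. Exons of 31 members overlapped another gene, and 29 members shared a stretch of at least 100 bases at 95% identity or more with a transcript of another gene, in 22 cases a pseudogene. The counting was not stated to use strand, so the counts of these members are uncertain. The plot of summed expression by complex shows every library.

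**Figure D1:**
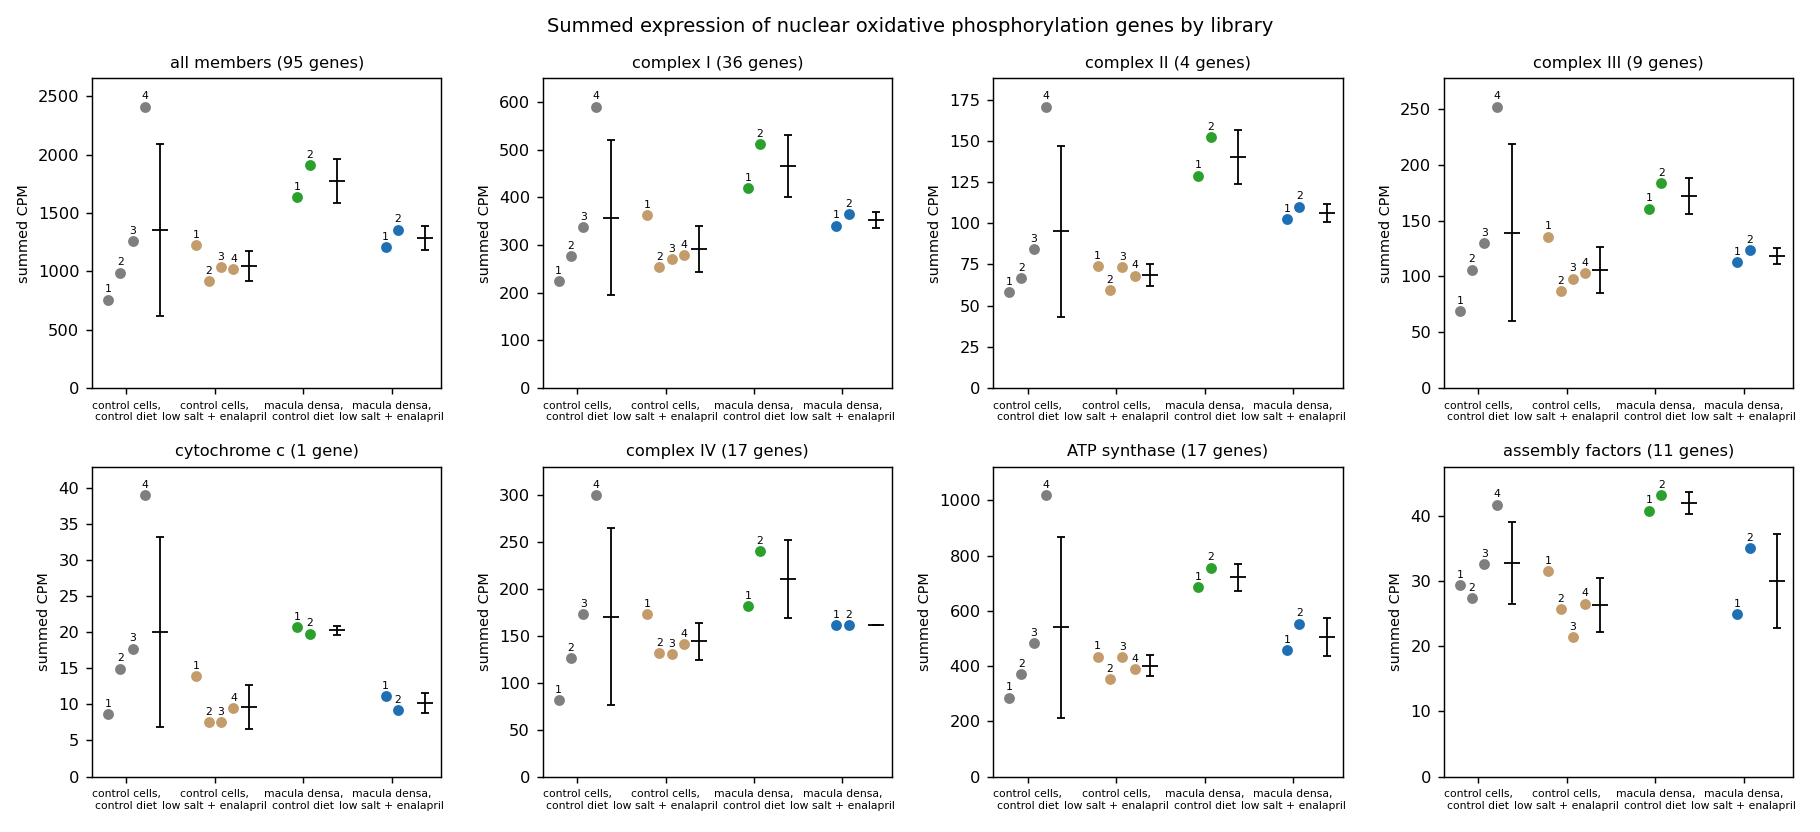
Summed CPM of the members by complex (y axis) in each library, by cell population and diet (x axis); points are libraries numbered by replicate, and the bar beside each group is its mean and SD. All members together sum to 757 to 2413 CPM in the control cells on control diet, where replicate 4 is highest in every panel, and to 1638 and 1908 CPM in the macula densa cells on that diet.

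The members together made up 0.378%, 0.544%, 0.639% and 1.35% of nuclear protein-coding counts in control-cell replicates 1 to 4 on control diet, and 0.955% and 1.09% in the 2 macula densa libraries. On low salt with enalapril the share was 0.683%, 0.480%, 0.508% and 0.569% in control cells and 0.596% and 0.629% in macula densa cells. Summed over members, control cells held 1355 ± 735 CPM (SD, n = 4) and macula densa cells 1773 ± 191 CPM (SD, n = 2) on control diet, and 1048 ± 128 CPM (SD, n = 4) and 1284 ± 105 CPM (SD, n = 2) on low salt with enalapril. In such sorted libraries, fewer cells of a type and less RNA per cell cannot be told apart. The macula densa sums on control diet lay above control-cell replicates 1 to 3 and below replicate 4.

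Levels between genes were compared per kilobase of exon. Averaged over the 12 libraries, the most abundant members per length were the catalytic ATP synthase subunits Atp5a1 (46.0 CPM per kb) and Atp5b (31.6 CPM per kb), the peripheral stalk subunit Atp5h (36.4 CPM per kb), the complex III subunit Uqcrb (31.3 CPM per kb) and the complex IV subunit Cox8a (27.2 CPM per kb). The deposited Atp5h and Uqcrb values were not whole in any of the 12 libraries, and both genes share sequence with pseudogenes. Cox4i1 was at 16.2 CPM per kb and Sdha at 15.5 CPM per kb, while the isoforms Cox6b2 (0.083 CPM per kb), Cox7b2 (0.296 CPM per kb) and Cox4i2 (0.300 CPM per kb) lay lowest.

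On control diet, 82 of the 90 tested members had a fitted level above that of control cells, and none passed the test. The share of all genes with a higher fitted level was 46.9%. The median log2 fold change of the members was 0.37, against -0.05 for all 14180 genes tested. By complex the median was 0.41 for complex I, 0.47 for complex II, 0.27 for complex III, 0.27 for complex IV, 0.44 for ATP synthase and 0.31 for the assembly factors, and the single cytochrome c gene was at 0.01. In the edgeR quasi-likelihood test with Benjamini-Hochberg adjustment 0 of 90 members were called, while 6.61% of all genes were. At an unadjusted p of 0.05, 2 members passed (2.22%, against 24.2% of all genes). DESeq2 called 0 members (14.1% of all genes). Limma voom called 13, all higher in macula densa cells (14.4%, against 7.25% of all genes called higher and 13.5% in either direction).

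The control cells differed among themselves. Control-cell replicate 4 was the highest of its group for 83 of the 90 tested members (92.2%, against 33.9% of all genes), and the highest of all 12 libraries for 59 (65.6%, against 10.3%). On control diet it lay above both macula densa libraries for 63 members (70%, against 36.2% of all genes). Both macula densa libraries lay above control-cell replicates 1 to 3 for 58 members (64.4%, against 23.0% of all genes). These were 13 of 16 in ATP synthase, 23 of 36 in complex I, 3 of 4 in complex II, 5 of 9 in complex III, 6 of 13 in complex IV, 7 of 11 assembly factors and Cycs. With replicate 4 included, macula densa and control-cell libraries did not overlap for 6 members, all higher in macula densa cells (6.67%, against 15.2% of all genes), namely Atp5g2, Atp5k, Atp5l, Ndufaf2, Ndufs6 and Uqcc1. Without replicate 4, edgeR called 18 of 89 members, all higher in macula densa cells (20.2%, against 6.22% of all genes called higher and 11.5% called lower), and the members' median log2 fold change was 0.71. Those 18 held 7 genes of complex I, 2 each of complexes II, III and IV, and 5 of ATP synthase. Podocyte and endothelial sums were also far lower in that library than in the other 3, and the part of these cells in the difference was not tested.

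**Figure D2:**
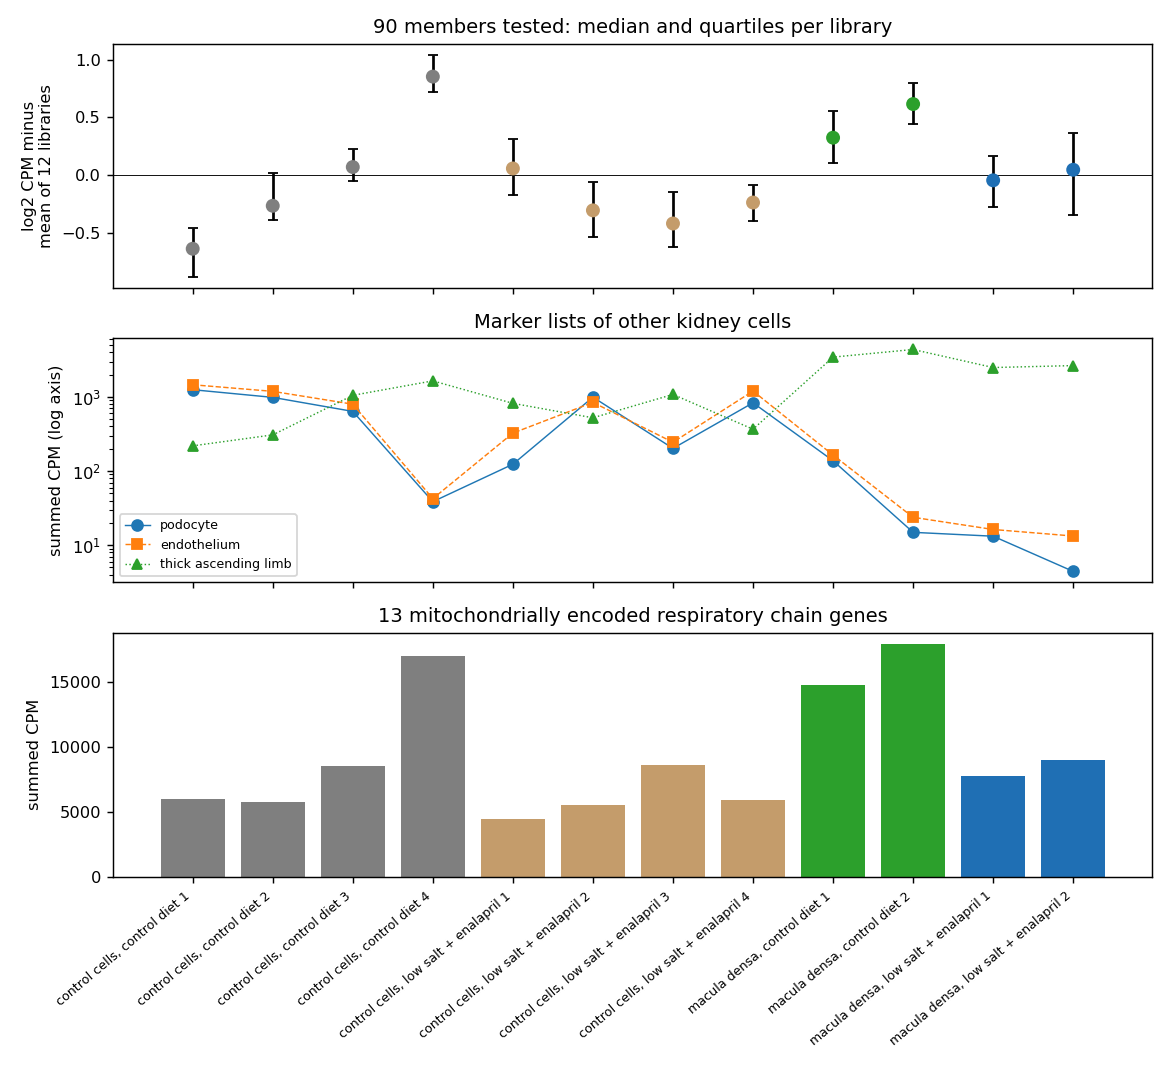
Upper panel, the median and quartiles over the 90 tested members of log2 CPM minus the mean of the 12 libraries, by library; middle panel, summed CPM of podocyte, endothelium and thick ascending limb markers on a log axis; lower panel, summed CPM of the 13 mitochondrially encoded respiratory chain genes. Member medians run from -0.64 in control-cell replicate 1 to 0.85 in replicate 4 on control diet, in which podocyte markers are lowest among the control cells.

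Complex I receives electrons from NADH in its peripheral arm, whose core subunits include Ndufs1, Ndufs3 and Ndufv1. Ndufs1 measured 14.1, 16.3, 24.4 and 43.1 CPM in the control cells and 25.9 and 37.7 CPM in the macula densa cells on control diet. Ndufs1 levels on low salt with enalapril were 13.4, 16.4, 11.3 and 15.2 CPM and 28.4 and 32.8 CPM. Macula densa values of this iron-sulphur subunit lay inside the control-cell range on control diet, only because of replicate 4, and above all 4 control-cell libraries on low salt with enalapril. The fitted log2 difference between cells was 0.38 on control diet (edgeR adjusted p = 0.596) and 1.12 ± 0.38 (SE) on low salt with enalapril (edgeR adjusted p = 0.0895). Without replicate 4 of the control cells, whose removal changes the estimated spread, the second value was 1.12 ± 0.26 with an edgeR adjusted p of 0.0140. Exons of Ndufs1 overlap Eef1b2 on the opposite strand.

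Ndufv1 was at 8.97, 10.6, 12.5 and 24.6 CPM in the control cells and 16.9 and 19.1 CPM in the macula densa cells on control diet. Ndufv1 levels on low salt with enalapril were 14.8, 10.3, 11.8 and 9.15 CPM and 14.4 and 24.8 CPM. The flavin-binding subunit overlapped between all groups compared. Ndufs3 stood at 4.48, 5.17, 6.09 and 10.8 CPM in the control cells and 10.1 and 12.1 CPM in the macula densa cells on control diet. Ndufs3 levels on low salt with enalapril were 5.99, 3.43, 4.83 and 4.98 CPM and 5.17 and 6.89 CPM. This core subunit of the quinone module was among the 3 smallest p-values on control diet (log2 fold change 0.74 ± 0.34, edgeR adjusted p = 0.202), and its sequence is shared in part with a pseudogene. Without control-cell replicate 4 its log2 fold change was 1.08 and its edgeR adjusted p 0.0181.

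Accessory subunits surround that core. Ndufs6 measured 1.75, 3.10, 3.14 and 4.65 CPM in the control cells and 4.82 and 7.98 CPM in the macula densa cells on control diet. Ndufs6 levels on low salt with enalapril were 3.84, 2.94, 3.99 and 2.44 CPM and 1.53 and 1.15 CPM. Ndufs6, a zinc-binding accessory subunit, was highest in the macula densa cells on control diet and lowest in them on low salt with enalapril, with no overlap with control cells on either diet. It had the smallest p of all members on control diet (log2 fold change 1.02 ± 0.37, edgeR adjusted p = 0.120; 0.0363 without control-cell replicate 4). Its counts on low salt with enalapril were 8 and 7 in the macula densa libraries, and its exons overlap Mrpl36 on the opposite strand. Ndufa9 was at 7.44, 8.17, 8.86 and 17 CPM in the control cells and 19.9 and 13.4 CPM in the macula densa cells on control diet. Ndufa9 levels on low salt with enalapril were 8.45, 6.12, 5.88 and 8.65 CPM and 10.7 and 15.6 CPM. Both macula densa libraries exceeded every control-cell library on low salt with enalapril. On control diet both exceeded control-cell replicates 1 to 3, and replicate 4 lay between them. Averaged over both diets, Ndufa9 was the 1 member of 90 called (1.11%, against 21.3% of all genes in either direction and 7.48% higher): it was 1.69-fold higher in macula densa cells (log2 fold change 0.76 ± 0.24, edgeR adjusted p = 0.0438). Adjusted p-values for Ndufa9 over the alternatives ranged from 0.00290 to 0.211, and leaving out any 1 of the 12 libraries other than control-cell replicate 4 on control diet ended the call. Ndufa9 exons overlap the gene 1700018A23Rik on the opposite strand.

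Complex II is the only respiratory complex whose subunits are all nuclear, and it also belongs to the tricarboxylic acid cycle. Sdha stood at 40.9, 44.3, 53.3 and 114 CPM in the control cells and 91.6 and 101 CPM in the macula densa cells on control diet. Sdha levels on low salt with enalapril were 45.9, 35, 46.6 and 45.1 CPM and 74.5 and 75 CPM. The flavoprotein subunit was higher in both macula densa libraries than in all control-cell libraries except replicate 4 on control diet. Its fitted log2 fold change was 0.60 ± 0.35 on control diet (edgeR adjusted p = 0.316) and 0.79 ± 0.35 on low salt with enalapril (edgeR adjusted p = 0.179). Without control-cell replicate 4 these were 1.06 ± 0.20 (edgeR adjusted p = 0.00465) and 0.79 ± 0.19 (edgeR adjusted p = 0.0174). Sdha has no overlapping exon and no near-identical copy in the annotation used. Sdhb measured 5.47, 8.55, 12.1 and 19.3 CPM in the control cells and 15.8 and 23.2 CPM in the macula densa cells on control diet. Sdhb levels on low salt with enalapril were 9.07, 8.81, 12.4 and 9.15 CPM and 9.58 and 11 CPM. The iron-sulphur subunit was lower in both macula densa libraries on low salt with enalapril than on control diet, and overlapped with control cells on both diets. Sdhd was at 4.70, 5.26, 8.48 and 18.4 CPM in the control cells and 8.21 and 13 CPM in the macula densa cells on control diet. Sdhd levels on low salt with enalapril were 9.84, 6.61, 7.14 and 6.0 CPM and 8.24 and 16.6 CPM. This membrane anchor overlapped between all groups compared.

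Complex III holds 2 core proteins, cytochrome c1 and an iron-sulphur protein in its nuclear set. Uqcrc1 stood at 18.7, 21, 26.6 and 42.8 CPM in the control cells and 39.6 and 39.5 CPM in the macula densa cells on control diet. Uqcrc1 levels on low salt with enalapril were 25.1, 19.3, 18.5 and 22 CPM and 24.9 and 18.5 CPM. This core protein lay within the control-cell range in macula densa cells on control diet. Both macula densa libraries were lower on low salt with enalapril than on control diet. Uqcrfs1 measured 7.44, 12.7, 15.3 and 40.2 CPM in the control cells and 19.3 and 19.5 CPM in the macula densa cells on control diet. Uqcrfs1 levels on low salt with enalapril were 14.9, 11.3, 19.7 and 13.2 CPM and 15.5 and 32.5 CPM. The Rieske iron-sulphur subunit overlapped between all groups compared. Cyc1 was at 7.11, 8.55, 13 and 21.2 CPM in the control cells and 12.5 and 16.2 CPM in the macula densa cells on control diet. Cyc1 levels on low salt with enalapril were 7.53, 11.3, 9.45 and 9.26 CPM and 10.9 and 11.6 CPM. Cytochrome c1 was lower in both macula densa libraries on low salt with enalapril than on control diet, by 0.35 on the fitted log2 scale (edgeR adjusted p = 0.799).

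Cytochrome c (Cycs) carries electrons between complexes III and IV. Cycs stood at 8.64, 14.9, 17.7 and 38.9 CPM in the control cells and 20.7 and 19.8 CPM in the macula densa cells on control diet. Cycs levels on low salt with enalapril were 13.9, 7.59, 7.56 and 9.46 CPM and 11.1 and 9.19 CPM. Macula densa and control cells overlapped on both diets. Both macula densa libraries were lower on low salt with enalapril than on control diet. All 4 control-cell libraries on low salt with enalapril lay below control-diet replicates 2 to 4, and replicate 1 lay inside their range. Cycs shares sequence with 11 other genes, 9 of them in the table, so its counts are uncertain.

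**Figure D3:**
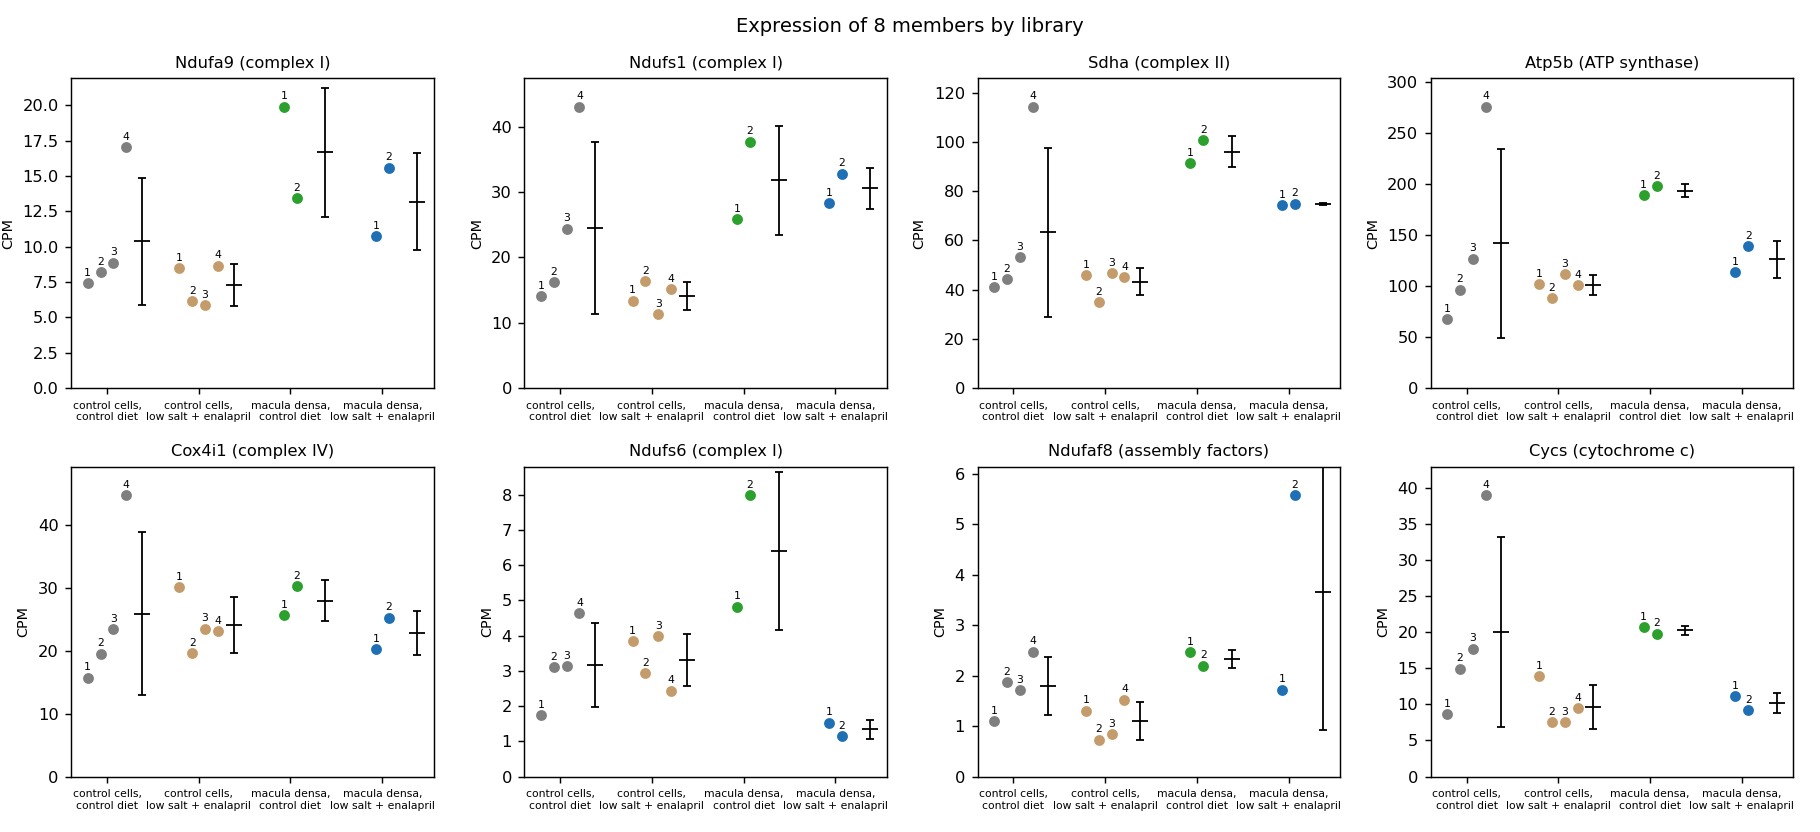
CPM (y axis) of 8 members in each library by cell population and diet (x axis); points are libraries numbered by replicate, and the bar beside each group is its mean and SD. Sdha and Ndufs1 are higher in both macula densa libraries than in all control cells on low salt with enalapril, and Ndufs6 is lower.

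Complex IV has several subunits with tissue or condition isoforms. Cox4i1 measured 15.7, 19.5, 23.4 and 44.7 CPM in the control cells and 25.6 and 30.3 CPM in the macula densa cells on control diet. Cox4i1 levels on low salt with enalapril were 30.1, 19.6, 23.5 and 23.1 CPM and 20.3 and 25.3 CPM. The common form of subunit IV overlapped between macula densa and control cells on both diets. Cox4i2 had 0, 4, 3 and 2 counts in the control cells and 0 and 0 in the macula densa cells on control diet. Cox4i2 counts on low salt with enalapril were 4, 3, 2 and 5 and 0 and 0. Cox4i2, the isoform known from lung and from hypoxia, was at 0 in all 4 macula densa libraries. Pooled, it had 0 counts there and 23 in the 8 control-cell libraries, so that its level was at least 3.57-fold lower in macula densa cells (floor of 3 counts over the group). Per kilobase, Cox4i1 averaged 16.7 and 15.5 CPM per kb in control cells on control diet and on low salt with enalapril, where Cox4i2 averaged 0.275 and 0.625 CPM per kb.

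Cox7a2 was at 2.51, 4.04, 5.90 and 9.19 CPM in the control cells and 4.62 and 6.76 CPM in the macula densa cells on control diet. Cox7a2 levels on low salt with enalapril were 4.69, 3.18, 3.99 and 3.26 CPM and 4.41 and 5.25 CPM. This broadly expressed isoform overlapped between macula densa and control cells on both diets. Cox7a1 had 0, 9, 17 and 24 counts in the control cells and 0 and 4 in the macula densa cells on control diet. Cox7a1 counts on low salt with enalapril were 2, 4, 0 and 7 and 1 and 0. The heart and muscle isoform Cox7a1 thus had 5 counts in macula densa cells and 63 in control cells, a ratio of CPM of 0.171 (95% exact interval 0.0535 to 0.420, counting error only), and control-cell replicates 3 and 4 on control diet held most of them. That interval leaves out the spread between libraries, and the edgeR test with all 12 libraries did not call Cox7a1 in any cell comparison. Cox7a2l stood at 7.44, 7.61, 9.33 and 8.88 CPM in the control cells and 6.46 and 9.61 CPM in the macula densa cells on control diet. Cox7a2l levels on low salt with enalapril were 12.8, 8.81, 11.6 and 14.7 CPM and 8.05 and 7.87 CPM. Cox7a2l, a supercomplex factor related to Cox7a2, was lower in both macula densa libraries than in all control cells on low salt with enalapril (log2 fold change -0.60 ± 0.26, edgeR adjusted p = 0.177). Within the control cells, its fitted level was higher on low salt with enalapril (log2 fold change 0.54 ± 0.21, edgeR adjusted p = 0.694), one of the 3 smallest p-values of that comparison.

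Ndufa4 measured 4.48, 6.39, 6.95 and 14.7 CPM in the control cells and 8.92 and 12.9 CPM in the macula densa cells on control diet. Ndufa4 levels on low salt with enalapril were 8.99, 5.88, 7.77 and 7.83 CPM and 14.4 and 9.35 CPM. Ndufa4, first assigned to complex I and now placed in complex IV, exceeded all control-cell libraries in both macula densa libraries on low salt with enalapril. Ndufa4l2 had 2, 10, 7 and 9 counts in the control cells and 0 and 0 in the macula densa cells on control diet. Ndufa4l2 counts on low salt with enalapril were 1, 4, 0 and 6 and 1 and 0. Its hypoxia-inducible paralog Ndufa4l2 had 1 count in the macula densa libraries and 39 in the control-cell libraries, a ratio of CPM of 0.0551 (95% exact interval 0.00136 to 0.326). Markers of smooth muscle, mesangial and renin cells (6 genes) likewise summed to 125 to 545 CPM in control cells and 20.3 to 50.2 CPM in macula densa cells, and the part of such cells in the counts of Cox4i2 and Ndufa4l2 was not tested.

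Cox6a1 was at 5.14, 8.55, 13 and 19.7 CPM in the control cells and 11.4 and 13.9 CPM in the macula densa cells on control diet. Cox6a1 levels on low salt with enalapril were 9.76, 14.2, 10.3 and 10.3 CPM and 6.70 and 12.1 CPM. Cox6a1, the common form of subunit VIa, overlapped between cell populations on both diets. Cox6b1 stood at 5.25, 7.89, 8.38 and 15.1 CPM in the control cells and 12.8 and 16.1 CPM in the macula densa cells on control diet. Cox6b1 levels on low salt with enalapril were 9.15, 7.10, 5.04 and 6.20 CPM and 9.58 and 6.23 CPM. The groups of cells overlapped for Cox6b1 too, and it was lower in both macula densa libraries on low salt with enalapril than on control diet. The testis isoforms were near 0, with 3 counts of Cox6b2 in macula densa and 8 in control cells, and with 11 of the Cox7b2 counts in macula densa replicate 1 on control diet and at most 2 in any other library. Cox8a measured 5.80, 13.5, 19.2 and 26.4 CPM in the control cells and 17 and 23.5 CPM in the macula densa cells on control diet. Cox8a levels on low salt with enalapril were 13.8, 13.2, 14.5 and 15.7 CPM and 21.8 and 17.4 CPM. Cox8a was above all control-cell values in both macula densa libraries on low salt with enalapril. Cox5a was at 2.73, 4.98, 6.76 and 11.4 CPM in the control cells and 6.67 and 8.88 CPM in the macula densa cells on control diet. Cox5a levels on low salt with enalapril were 3.23, 3.92, 3.57 and 5.70 CPM and 4.02 and 2.30 CPM. Cox5a was lower in both macula densa libraries on low salt with enalapril than on control diet and overlapped with control cells on both diets. The muscle isoforms Cox6a2 and Cox8b were not analysed here.

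ATP synthase couples the proton gradient to ATP synthesis through a catalytic head, stalks and a membrane ring. Atp5a1 stood at 86.5, 98.7, 126 and 283 CPM in the control cells and 194 and 223 CPM in the macula densa cells on control diet. Atp5a1 levels on low salt with enalapril were 105, 88.9, 135 and 109.8 CPM and 122 and 159.9 CPM. The alpha subunit overlapped between cells on both diets. Atp5b measured 67.7, 96.4, 127 and 276 CPM in the control cells and 189 and 198 CPM in the macula densa cells on control diet. Atp5b levels on low salt with enalapril were 102, 87.9, 112 and 100.4 CPM and 113 and 139 CPM. The catalytic beta subunit was above all control-cell values on low salt with enalapril in both macula densa libraries, and above replicates 1 to 3 on control diet. Its fitted log2 fold change was 0.45 on control diet (edgeR adjusted p = 0.565), and 0.997 without control-cell replicate 4 (edgeR adjusted p = 0.0172). Atp5l was at 1.53, 4.04, 3.33 and 6.20 CPM in the control cells and 7.39 and 6.27 CPM in the macula densa cells on control diet. Atp5l levels on low salt with enalapril were 2.84, 4.16, 4.20 and 4.17 CPM and 3.07 and 3.77 CPM. This membrane subunit had the third smallest p on control diet (log2 fold change 0.85 ± 0.41, edgeR adjusted p = 0.223; 0.0449 without control-cell replicate 4). Atp5l shares sequence with 10 other genes, and its value was not whole in any library.

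The ring subunit c is encoded by 3 genes with different targeting peptides and the same mature protein. Atp5g1 stood at 3.83, 3.66, 8.0 and 14.6 CPM in the control cells and 8.10 and 10.3 CPM in the macula densa cells on control diet. Atp5g1 levels on low salt with enalapril were 3.38, 4.90, 4.20 and 4.07 CPM and 5.94 and 5.58 CPM. Both macula densa libraries were above all control cells on low salt with enalapril, and overlapped with them on control diet. Atp5g2 measured 1.86, 3.19, 3.14 and 4.03 CPM in the control cells and 4.31 and 5.70 CPM in the macula densa cells on control diet. Atp5g2 levels on low salt with enalapril were 2.46, 1.47, 1.47 and 2.44 CPM and 2.87 and 0 CPM. Atp5g2 was higher in both macula densa libraries than in all control cells on control diet, and no count was found in macula densa replicate 2 on low salt with enalapril. Atp5g3 was at 6.01, 7.61, 9.71 and 19.9 CPM in the control cells and 8.92 and 17.2 CPM in the macula densa cells on control diet. Atp5g3 levels on low salt with enalapril were 12.6, 8.08, 6.72 and 9.05 CPM and 6.32 and 11.6 CPM. Atp5g3 overlapped between all groups compared. The coupling factor Atp5s had 14 counts in macula densa and 55 in control cells, a ratio of CPM of 0.547 (95% exact interval 0.281 to 0.997). The inhibitor Atp5if1 was not analysed here.

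Assembly factors build the complexes and are not part of the finished enzyme. Ndufaf8 stood at 1.09, 1.88, 1.71 and 2.48 CPM in the control cells and 2.46 and 2.20 CPM in the macula densa cells on control diet. Ndufaf8 levels on low salt with enalapril were 1.31, 0.734, 0.840 and 1.53 CPM and 1.72 and 5.58 CPM. Ndufaf8, which acts in complex I assembly, had the smallest p of all members on low salt with enalapril (log2 fold change 1.66 ± 0.51, edgeR adjusted p = 0.0691). The value rested on macula densa replicate 2: without it the log2 fold change was 0.54 and the edgeR adjusted p 0.686. Averaged over both diets, its log2 fold change was 1.02 ± 0.35 (edgeR adjusted p = 0.0595).

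On low salt with enalapril, 63 of 90 members had a higher fitted level in macula densa cells, against 46.5% of all genes, with a median log2 fold change of 0.18 against -0.06 for all genes. The edgeR test called 0 of 90 members, while 7.27% of all genes were called, and at an unadjusted p of 0.05 there were 7 members (7.78%, against 25.3%). DESeq2 called 1 member, higher in macula densa cells (1.11%, against 4.8% of all genes called higher and 13.6% in either direction). Limma voom called 0 (3.64% of all genes). Libraries did not overlap for 22 members that were higher in macula densa cells (24.4%, against 15.3% of all genes) and for 4 that were lower (4.44%, against 19.5%). ATP synthase gave 7 of the 22, complex I 8, complex IV 3, the assembly factors 2 and complexes II and III 1 each. The 4 lower were Cox7a2l, Ndufaf4, Ndufb4 and Ndufs6. Medians by complex were 0.16 for complex I, 0.41 for complex II, 0.03 for complex III, 0.18 for complex IV, 0.31 for ATP synthase and 0.20 for assembly factors. Without control-cell replicate 4, which enters through the shared estimate of the spread, 2 members were called, Ndufs1 and Sdha, both higher in macula densa cells. They were 2.25% of members, against 5.07% of all genes called higher and 13.5% in either direction.

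**Figure D4:**
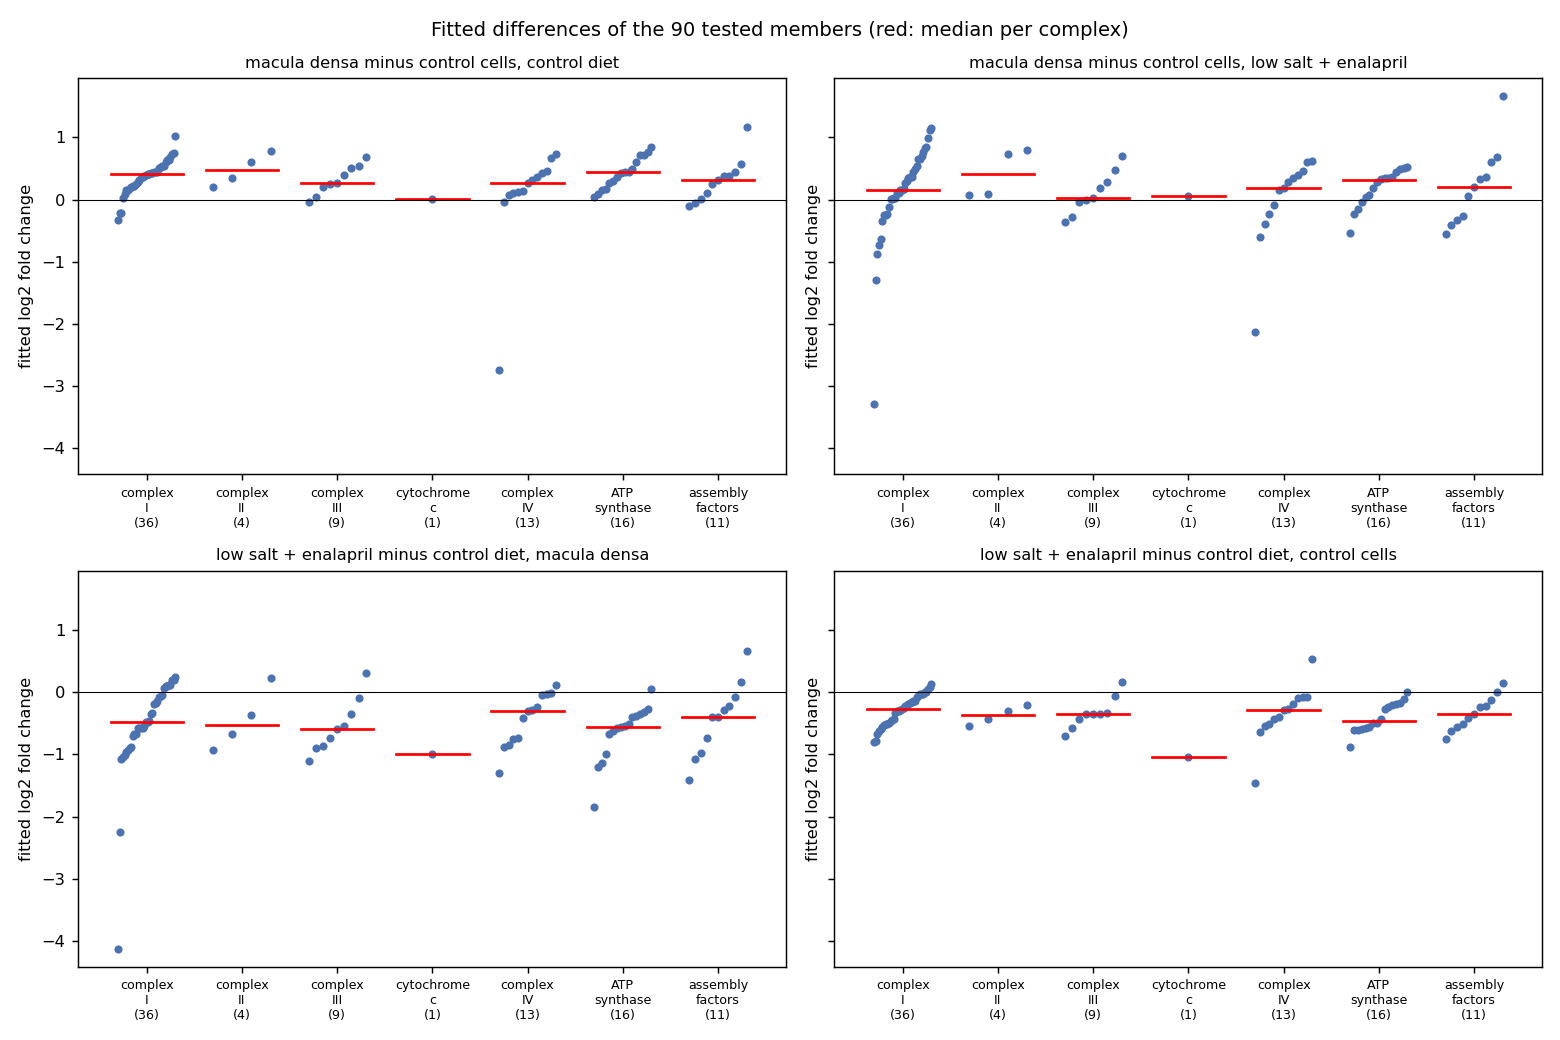
Fitted log2 fold changes (y axis) of the 90 tested members by complex (x axis, number tested in parentheses) in 4 comparisons; each point is a gene and each red line the median of its complex. In the comparison of cells on control diet nearly all points lie above 0, with 82 of 90 higher in macula densa cells, and in both diet comparisons most lie below 0; the isolated low points are Cox7a1 and Ndufb4, whose fitted values rest on libraries at or near 0 counts.

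Averaged over both diets, 72 of 90 members were fitted higher in macula densa cells, against 46% of all genes. Besides the single edgeR call, DESeq2 called 4 members (4.44%) and limma voom 8 (8.89%), all higher. Of all genes, DESeq2 called 8.88% higher (26.2% in either direction) and limma voom 9.9% higher (18.7% in either direction). At an unadjusted p of 0.05 there were 6 members (6.67%, against 34.4%). The members had a median log2 fold change of 0.28 against -0.06. Scaling moved these medians together: with library totals alone, the members' median was 0.49 and that of all genes 0.14. Without control-cell replicate 4 on control diet, 25 of 89 members were called, all higher in macula densa cells (28.1%, against 10.7% of all genes called higher and 17.5% called lower). They were 11 of the 36 complex I genes tested, 2 of 4 in complex II, 2 of 9 in complex III, 3 of 12 in complex IV, 6 of 16 in ATP synthase and 1 of 11 assembly factors. Of the 18 members called on control diet without that library, 13 were also among these 25, and both counts use the same control-diet libraries.

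**Figure D5:**
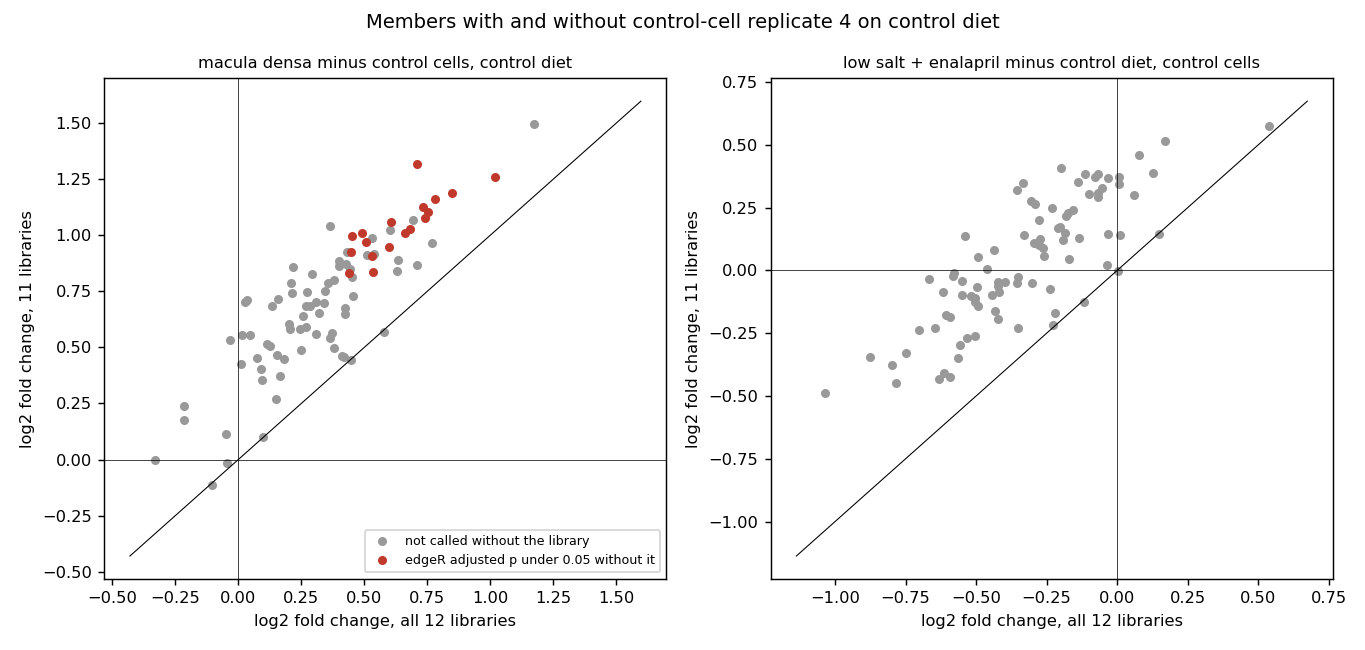
Fitted log2 fold change of each member with all 12 libraries (x axis) against the value without control-cell replicate 4 on control diet (y axis), for the cell comparison on control diet (left) and the diet comparison in control cells (right), for the 89 members tested in both; the diagonal marks equal values and red points are members called by edgeR without the library. Nearly all points lie above the diagonal in both panels, 18 members are red on the left and none on the right.

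In macula densa cells, the diet with enalapril went with lower values for most members, and none passed the test. Fitted levels were lower for 76 of 90, against 51.2% of all genes, and the median log2 fold change was -0.49 against -0.02 for all genes. By complex the medians were -0.48 for complex I, -0.52 for complex II, -0.59 for complex III, -0.30 for complex IV, -0.55 for ATP synthase and -0.39 for assembly factors. Both libraries on low salt with enalapril lay below both on control diet for 48 members (53.3%, against 21.8% of all genes), with 13 of 16 in ATP synthase, 7 of 9 in complex III, 3 of 4 in complex II, 14 of 36 in complex I, 6 of 13 in complex IV, 4 of 11 assembly factors and Cycs. The reverse held for 1 member, Ndufs5 (1.11%, against 18.8%). The edgeR test called 0 members and 0% of all genes; at an unadjusted p of 0.05 there were 9 members (10%, against 11.2% of all genes), DESeq2 called 1 member, Ndufs6 (0.656% of all genes), and limma voom 0 (0.0282% of all genes). Podocyte and endothelial sums were also lower in the macula densa libraries on low salt with enalapril, and thick ascending limb markers summed to 3447 and 4369 CPM on control diet and 2494 and 2649 CPM on low salt with enalapril. Proximal tubule markers (10 genes) summed to 157 and 265 CPM on control diet and 55.9 and 129 CPM on low salt with enalapril. Distal convoluted and connecting tubule markers (6 genes) summed to 293 and 492 CPM and to 544 and 435 CPM. The part of any of these cells in the member values was not tested.

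Ndufs6 had the smallest p of this comparison as well (log2 fold change -2.25 ± 0.51, edgeR adjusted p = 0.218; DESeq2 adjusted p = 0.0396). Ndufb4, an accessory subunit of the membrane arm, had an estimated 40 counts (rounded after summing) over the control-diet libraries of macula densa cells and 1 over those on low salt with enalapril, a ratio of CPM of 0.0487 (95% exact interval 0.00120 to 0.287), and its edgeR adjusted p was 0.287. Ndufb4 had 13, 7, 12 and 29 counts in the control cells and 11 and 30 in the macula densa cells on control diet. Ndufb4 counts on low salt with enalapril were 19, 5, 2 and 8 and 1 and 0. Low counts were thus seen in both macula densa libraries on that diet, and Ndufb4 shares sequence with 2 pseudogenes. Ndufv3 measured 9.19, 9.68, 10.2 and 14.8 CPM in the control cells and 12.8 and 15.4 CPM in the macula densa cells on control diet. Ndufv3 levels on low salt with enalapril were 10.4, 11.8, 7.98 and 12.6 CPM and 9.58 and 4.27 CPM. Ndufv3, an accessory subunit of the electron input module, was lower in both macula densa libraries on low salt with enalapril than on control diet (log2 fold change -1.04 ± 0.38, edgeR adjusted p = 0.360). Sdha was at a log2 fold change of -0.36 (edgeR adjusted p = 0.780), Atp5b at -0.62 (edgeR adjusted p = 0.668) and Ndufs1 at -0.06 (edgeR adjusted p = 0.977).

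In control cells, 80 of 90 members were fitted lower on low salt with enalapril, against 54.2% of all genes, with a median log2 fold change of -0.32 against -0.04. Without control-cell replicate 4 on control diet, the median was 0.02, and 46 members were fitted higher and 43 lower. The edgeR test called 0 members and 0.00705% of all genes, and without that library 0 members and 0.0071% of all genes. At an unadjusted p of 0.05 there were 6 members (6.67%, against 6.45% of all genes), and DESeq2 (0.522% of all genes) and limma voom (0.00705%) called 0. All 4 libraries of one diet lay below all 4 of the other for 1 member, Ndufs5 (1.11%, against 2.09% of all genes), and above for 0 (0%, against 2.10%). Ndufs5 was at 7.33, 8.08, 8.95 and 16.5 CPM in the control cells and 9.03 and 7.25 CPM in the macula densa cells on control diet. Ndufs5 levels on low salt with enalapril were 6.84, 4.65, 5.04 and 6.82 CPM and 9.39 and 9.19 CPM. Ndufs5, an accessory subunit of complex I, was lower in all 4 control-cell libraries on low salt with enalapril (log2 fold change -0.78 ± 0.27, edgeR adjusted p = 0.670). With 1 library left out, that log2 fold change ranged from -0.90 to -0.45. Ndufs5 shares sequence with a pseudogene and was not whole in any library. The next smallest p was that of Cycs, at -1.04 ± 0.39 (edgeR adjusted p = 0.689), which was -0.49 without replicate 4.

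The difference between the diet effects in the 2 cell populations was tested as an interaction. The edgeR test called 0 members, with 0% of all genes called, and DESeq2 (0.0917% of all genes) and limma voom (0%) called 0. At an unadjusted p of 0.05 there were 3 members (3.33%, against 7.03% of all genes), of which Ndufs6 had the smallest p (log2 difference -2.32, edgeR adjusted p = 0.558), followed by Ndufb4 and by Ndufv3 (-1.0, edgeR adjusted p = 0.709). The median of the members was -0.19 against -0.01 for all genes, and -0.59 without control-cell replicate 4 on control diet. The diet effect of the 2 cell populations was thus not shown to differ for any member.

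Partner genes of the respiratory chain were read from lists fixed with the members. The 13 mitochondrially encoded subunits, which share complexes I, III, IV and ATP synthase with the members, summed to 5949, 5731, 8539 and 16972 CPM in control cells and 14769 and 17861 CPM in macula densa cells on control diet. On low salt with enalapril they summed to 4417, 5547, 8604 and 5878 CPM and to 7779 and 8992 CPM. Control-cell replicate 4 was again highest in its group, and both macula densa libraries were lower on low salt with enalapril. Their median log2 fold change was 0.66 between cells over both diets, -1.04 for the diet in macula densa cells and -0.71 for the diet in control cells. These medians come from the fit that includes control-cell replicate 4 on control diet. Of the 13, 1 was called higher in macula densa cells over both diets, while 7.48% of all genes were. It was mt-Nd6 (log2 fold change 0.98 ± 0.30, edgeR adjusted p = 0.0376). Leaving out 1 library ended that call in 9 of 12 cases, with an edgeR adjusted p of up to 0.257 (without macula densa replicate 2 on low salt with enalapril).

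Enzymes of the tricarboxylic acid cycle and pyruvate dehydrogenase (16 genes) had a median log2 fold change of 0.35 between cells over both diets. Of these, 1 was called higher, while 7.48% of all genes were. It was Suclg2, the GTP-forming subunit of succinyl-CoA ligase (0.91 ± 0.29, edgeR adjusted p = 0.0439). That call ended in 10 of 12 fits with 1 library left out, in which its log2 fold change ranged from 0.81 to 1.16. Assembly factors outside the symbol rule (35 of 37 tested) had a median of 0.32 with 0 called, against 21.3% of all genes. Mitochondrial import and carrier genes (18) had a median of 0.02 with 0 called. Mitochondrial ribosomal proteins (78 genes) had a median of 0.17, with 4 called higher, among them Mrpl1 (1.24), Mrps17 (0.92) and Mrpl46 (0.92), and 0 lower. Of all genes, 7.48% were called higher and 13.9% lower in the same comparison. Leaving out 1 library ended the call of Mrpl46 in 9 of 12 cases and those of Mrpl1 and Mrps17 in 2 each, namely without macula densa replicate 2 on control diet (Mrpl1 0.80, edgeR adjusted p = 0.115; Mrps17 0.87, edgeR adjusted p = 0.0771) or replicate 1 on low salt with enalapril (1.07, edgeR adjusted p = 0.0511; 0.83, edgeR adjusted p = 0.0612). Cytosolic ribosomal proteins (81 of 82 tested) had a median of -0.02 with 0 called.

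Regulators of mitochondrial biogenesis (16 genes) had a median log2 fold change of 0.04 between cells over both diets, with 4 called higher and 2 lower in macula densa cells, while 7.48% of all genes were called higher and 13.9% lower. Esrrg, an estrogen-related receptor, was at 4.92, 7.80, 11.6 and 29.8 CPM in control cells and 40.6 and 38.7 CPM in macula densa cells on control diet. Its levels on low salt with enalapril were 7.07, 6.37, 9.87 and 7.12 CPM and 24.7 and 29.7 CPM. Esrrg libraries did not overlap between the cell populations on either diet, and its log2 fold change was 1.70 ± 0.36 (edgeR adjusted p = 0.00659), a call that ended in 0 of 12 fits with 1 library left out. Tfb1m, a methyltransferase of mitochondrial ribosomal RNA, was higher at 1.42 ± 0.33 (edgeR adjusted p = 0.0111), with 5.74 CPM in macula densa replicate 2 on low salt with enalapril and 0.610 to 2.30 CPM in the other libraries. Without that library its log2 fold change was 1.01 (edgeR adjusted p = 0.0847), and without macula densa replicate 1 on control diet 1.25 (edgeR adjusted p = 0.0529). Ppargc1b, also named after its values were seen, was higher at 1.05 ± 0.31 (edgeR adjusted p = 0.0324). It lay between 7.28 and 14.99 CPM in macula densa cells and between 2.73 and 9.71 CPM in control cells. Ppargc1b libraries overlapped between the cell populations on control diet and not on low salt with enalapril. Fits of Ppargc1b with 1 library left out are not reported here. Gabpa, the DNA-binding subunit of GABP, lay between 16.2 and 19.0 CPM in macula densa cells and between 11.7 and 14.2 CPM in control cells (log2 fold change 0.45 ± 0.13, edgeR adjusted p = 0.0256), and leaving out 1 library ended the call in 6 of 12 cases (edgeR adjusted p of up to 0.140). The 2 lower genes, named after their values were seen, were Nrf1, a transcription factor of nuclear respiratory genes (3.12 to 6.90 CPM in macula densa cells and 6.48 to 11.04 CPM in control cells; log2 fold change -0.74 ± 0.23, edgeR adjusted p = 0.0424), and Pprc1, a coactivator (2.11 to 5.13 CPM and 3.10 to 7.14 CPM; -0.91 ± 0.30, edgeR adjusted p = 0.0475). Nrf1 libraries did not overlap between the cell populations within either diet, and those of Pprc1 overlapped on control diet. Leaving out 1 library ended the call of Nrf1 in 8 of 12 cases (edgeR adjusted p of up to 0.161) and that of Pprc1 in 9 of 12 (up to 0.159).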

How the data were processed

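The deposited table gave estimated counts per gene for 12 libraries; 14.8% of values were not whole (tolerance 1e-06), and values were rounded before testing. Every column had a sample (0 without). Per the submitters' processing notes, STAR 2.61 and Partek were used with the mm10 build. Per the labels' protocols, the library kit marked strand and was meant for little total RNA; use of strand in counting is not given in the sources used here. All 23378 genes matched GENCODE M21 by symbol and start. The noncoding gene Gm42418 took 53.5% to 65.0% of counts.

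Genes were filtered with filterByExpr (count minimum 10, total minimum 15) and 14180 were kept. One edgeR 4.0.16 quasi-likelihood fit (R 4.3.3, TMM scaling, 1 coefficient per group, all 12 libraries) gave all comparisons, with Benjamini-Hochberg adjustment over 14180 genes at 0.05. It was tested on simulated data. CPM are relative to TMM-scaled totals. Near-identical copies were found with blastn 2.17.0. Ratios of low counts carry exact 95% intervals that cover counting error only.

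The members and the gene lists were chosen with earlier results of these data known. Every member could be named; values in every library are given for core subunits, isoform sets and, per comparison, up to 5 members in each direction past the threshold, or the 3 smallest p-values where none passed. From other lists up to 3 genes are named by smallest p, and for the regulators of mitochondrial biogenesis all genes called over both diets are named. Sdhd was added for its promoter. Values of a further core subunit are not reported here. Alternatives were other scaling, filters, DESeq2 1.42.0, limma 3.58.1 voom, fits of the groups compared, a threshold of 0.01, blocks by label numbers, and leave-one-out fits. Pairwise tests of counts within each group found no library deposited more than once in its group. Libraries of different groups were not compared in this way.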

Additional observations from a re-analysis of the deposited data

Results flagged for a closer look

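Among 60 sets of 4 control-cell libraries checked, 3 held a library far from the others of its group, and chance gives 3. Sdha was lowest in control-cell replicate 2 on low salt with enalapril, at a log2 CPM of 5.14 against 5.50 to 5.55 in the other 3 libraries. Sdhb was highest in replicate 3 of the same group, at 3.66 against 3.18 to 3.23. Atp5l was lowest in replicate 1 of that group, at 1.62 against 2.13 to 2.15.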

How the results depend on the processing

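Median log2 fold changes of the members moved by less than the spread between libraries (0.42, pooled SD) under every alternative run. This limit is wide, because the pooled SD includes control-cell replicate 4 on control diet. Without that library the median between cells on control diet went from 0.37 to 0.71. The interaction median went from -0.19 to -0.59, and the diet median in control cells turned from -0.32 to 0.02. The count of members called moved more. For the cell comparison on control diet (0 called), voom gave 13 and leaving out 1 library gave 0 to 18. For low salt with enalapril (0 called), library totals, DESeq2 and a fit of only the groups compared gave 1 each, and leaving out 1 library 0 to 3. For the mean of both diets (1 called), library totals gave 6, a filter at a mean of 5 CPM 2, a threshold of 0.01 gave 0, DESeq2 4, voom 8, and leaving out 1 library 0 to 25. For the diet in macula densa cells (0 called), DESeq2 gave 1. Leaving out 1 macula densa library leaves its group with 1, which is assumed to vary like the other groups. The sign of 2 small differences turned: with 1 library left out, the diet difference of Ndufs1 in macula densa cells ranged from -0.35 to 0.16 (positive without replicate 2 of the control diet), and Cox4i1 between cells on control diet ranged from -0.041 to 0.51 (negative without control-cell replicate 1). The cause of these changes was not tested.

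The labels carry 2 kinds of numbers that groups share. Each shared description number joins a macula densa library, marked cell, and a control-cell library, marked ctrl, on the same diet. Whether such a number stands for an animal is not stated. Correlations of deviations from the group means were -0.04, 0.23, -0.02 and 0.08 for the description numbers. With 2 macula densa libraries per group, their deviations mirror each other, so these correlations cannot decide whether the samples are paired. The main fit did not use the numbers as pairs. A replicate block by title number called 4 members over both diets, all higher in macula densa cells, and 0 in the other comparisons. The 4 were 4.44% of members, against 4.83% of all genes called higher and 13.5% in either direction. A replicate block by description number was possible for 8 libraries and not for diet effects. Control-cell replicate 4 on control diet is not among the 8. The block called 14, 6 and 27 members (control diet, low salt with enalapril, both), all higher in macula densa cells, and 0 for the interaction. These were 15.7%, 6.74% and 30.3% of members. Of all genes, 5.48%, 5.72% and 9.96% were called higher, and 16.2%, 16% and 26.5% in either direction. The same 8 libraries without the block, a setting added after seeing the data, called 12, 5 and 23 members, all higher. Of all genes, 5.67%, 6.01% and 10.8% were then called higher, and 17%, 16.7% and 28.3% in either direction. In libraries with 781241 to 2331458 counts of nuclear protein-coding genes, depth limits the members with few counts, such as Ndufb4 and the minor isoforms.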
